A study of Homo sapiens with 9 samples.

Results

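The genes described here encode the cortactin family proteins HCLS1 and CTTN and subunits of the WAVE complex, WASF1, WASF2, WASF3, ABI1, ABI2, CYFIP1, CYFIP2 and NCKAP1. HCLS1 and WASF3 were chosen by their measured values in the line TC/AEW against its parent TC-71, a contrast in which they ranked 1 and 2 of 14181 genes by moderated statistic, and the other members because they belong to the same family or complex. Of the 10 genes listed, 8 had a probe set carrying their symbol alone in the annotation used, with 18 such probe sets of 41091 in all. WASF1 and ABI2 were not analysed here. Each gene is given by its probe set with the highest mean over 9 arrays. All 8 passed the filter on low values, which asked for 2 of 9 arrays at 5 or above on the log2 scale, but WASF3 reached 5 only on the 2 arrays of TC/AEW.

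RNA was read on Affymetrix HG-U133 Plus 2 arrays, 2 for each resistant line (TC/AEW, TC/AVE, TC/CP) and 1 for each of 3 TC-71 samples. TC-71 is an established Ewing sarcoma cell line, and the other lines were grown out of it under rising concentrations of an agent against the IGF-1 receptor for 6 months or more. For TC/AEW the agent was the kinase inhibitor NVP-AEW541, raised to 5 µM. For TC/AVE it was an antibody, AVE1642, raised to 10 µg/ml. For TC/CP it was figitumumab, likewise an antibody, at concentrations not stated in the labels used here. The culture medium was IMDM with serum throughout. The 2 arrays of a resistant line are technical replicates and were averaged into 1 sample, so each line is 1 sample and the spread in every single-line comparison comes from the 3 TC-71 samples. The p-values thus measure only the spread between these samples, and the labels name no TC-71 culture carried alongside the selection. By the year in their file labels the arrays form 3 sets: TC-71 sample 1 alone, TC/AEW and TC/AVE beside TC-71 sample 2, and TC/CP beside TC-71 sample 3.

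The WAVE complex turns a signal from the small GTPase Rac into branched actin. In the resting complex the WASF protein (WAVE) is held inactive by the CYFIP and NCKAP1 subunits, and Rac binding to CYFIP frees the end of the WASF protein that activates the Arp2/3 complex, which nucleates a new filament on the side of an old one. Cortactin binds Arp2/3 and filaments and stabilises the branch, and HCLS1 (HS1) is its relative in blood cells. The machinery drives the lamellipodia by which cells spread and migrate.

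Since HCLS1 and WASF3 were both high in TC/AEW alone, the 250 bases before their annotated transcription starts are shown, from RefSeq (GRCh38.p14), 5′ to 3′ on the strand of the gene. HCLS1 lies on the minus strand, at chr3:121660904-121661153, and WASF3 on the plus strand, at chr13:26557433-26557682. RefSeq gives WASF3 a total of 2 starts in the table used, and the window belongs to the first. Capitals mark matches on either strand to any of 4 motifs. The ETS motif was AGGAAG and the AP-1 motif was TGANTCA. The GC box was searched as GGGCGG, and the CCAAT box as those 5 letters.
HCLS1: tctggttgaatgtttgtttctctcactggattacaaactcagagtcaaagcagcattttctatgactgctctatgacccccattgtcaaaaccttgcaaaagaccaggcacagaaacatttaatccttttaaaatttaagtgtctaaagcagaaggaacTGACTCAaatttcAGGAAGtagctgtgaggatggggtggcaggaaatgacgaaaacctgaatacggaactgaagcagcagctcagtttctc
WASF3: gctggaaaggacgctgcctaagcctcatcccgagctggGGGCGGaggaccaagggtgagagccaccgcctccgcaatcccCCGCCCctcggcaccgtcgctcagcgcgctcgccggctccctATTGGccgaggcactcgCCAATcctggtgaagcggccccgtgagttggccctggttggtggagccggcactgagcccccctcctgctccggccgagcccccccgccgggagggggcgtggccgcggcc
The HCLS1 window held 1 ETS match and 1 AP-1 match and neither of the boxes. The WASF3 window held 2 GC boxes and 2 CCAAT boxes and no ETS or AP-1 match. Neither held a TATA box, searched as TATAAA. Neither held an E-box, searched as CACGTG. Over 35116 promoter windows of the same length, 28.7% held the ETS letters, 6.57% AP-1, 42.6% a GC box, 32.0% a CCAAT box, 10.7% a TATA box and 6.35% an E-box. The windows also differed in base composition, with 41.2% G and C in HCLS1 and 74.0% in WASF3, against a median of 58.0% over all windows. None of the motifs searched was in both.

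HCLS1 was high in TC/AEW alone. It read 7.63 and 7.68 on the log2 scale on the 2 TC/AEW arrays, 4.15 and 4.28 in TC/AVE and 5.00 on both in TC/CP, against 4.65, 5.11 and 4.94 in TC-71 samples 1, 2 and 3. The TC/AEW arrays lay 2.54 above the highest TC-71 sample on average, the TC/CP arrays lay among the TC-71 samples and both TC/AVE arrays lay below them. The difference of TC/AEW from the TC-71 mean was 2.76 ± 0.26 (moderated SE) on the log2 scale, and 2.54 against the TC-71 sample of the same array set. This is the contrast on which the gene was picked, so the value is given as a description with no test. TC-71 stood at 4.90 ± 0.23 (SD, n = 3), under the level of 5 taken as near background, so the difference may understate the change. Set against 5, the level in TC/AEW was 6.29-fold higher, but this is no lower bound, since TC-71 sample 2 read 5.11. In bulk RNA, more cells with the transcript and more RNA per cell cannot be told apart.

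WASF3, the WAVE isoform studied most in the invasion of cancer cells, was likewise high in TC/AEW alone. It read 6.77 and 6.96 in TC/AEW, 3.98 and 4.12 in TC/AVE and 4.57 and 4.23 in TC/CP, against 4.12, 4.57 and 4.57 in TC-71 samples 1, 2 and 3. Every array outside TC/AEW was under 5, so no order among them is drawn. TC/AEW was 2.44 ± 0.28 above the TC-71 mean of 4.42 ± 0.26 (SD, n = 3), again a description, and 2.29 above the TC-71 sample of its own set. Set against 5, the level was at least 3.64-fold higher. Background can lie above 5 on these arrays, since the red-cell gene HBB read 5.74 to 6.13 on them. Set against such a background, the folds of HCLS1 and WASF3 would be smaller.

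**Figure D1:**
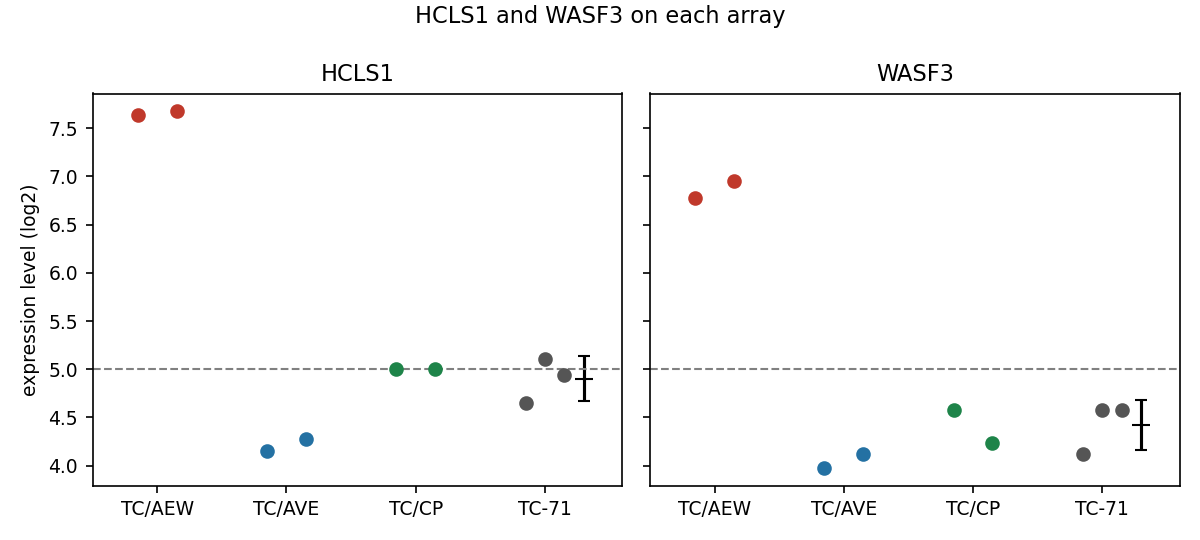
Expression level (log2) of HCLS1 and WASF3 on each array, with TC/AEW, TC/AVE and TC/CP at 2 arrays each and TC-71 at 3. The bar beside TC-71 is the mean ± SD (n = 3) and the dashed line marks 5, and in both panels the TC/AEW arrays stand at 6.77 or above while all others are at 5.11 or below.

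In the antibody-selected lines no array read above 5.00 in HCLS1 or above 4.57 in WASF3. Of the TC/AVE and TC-71 arrays only TC-71 sample 2 read above 5 in HCLS1, so no drop in TC/AVE is drawn. HCLS1 differed from TC-71 by -0.68 ± 0.26 in TC/AVE and by 0.10 ± 0.26 in TC/CP. The TC-71 samples also took part in the contrast that chose HCLS1, so these values are descriptions. TC/AVE against TC/CP, a contrast that takes only its spread from the TC-71 samples, gave -0.79 ± 0.32 for HCLS1. That spread was part of the choosing contrast as well, so this value is likewise a description. For WASF3 the differences were -0.38 in TC/AVE, -0.02 in TC/CP and -0.36 between them, all among readings under the filter level, so their tests bear on no measured level. Against the mean of TC/AVE and TC/CP, TC/AEW was 3.04 ± 0.28 higher in HCLS1 and 2.64 ± 0.29 higher in WASF3, described without a test because the same TC/AEW arrays chose the genes. TC/AEW was at least 2-fold above TC-71 with both arrays above it, and TC/AVE and TC/CP within 2-fold of TC-71, in 85 genes, or 0.599% of all tested. HCLS1 and WASF3 are among these by choice.

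HCLS1 is a gene of blood cells, so a list of blood-cell markers was read beside it. Of 11 such genes with a probe set, 6 stayed under 6 on every array, and CD14, LCP2, SPI1 and PTPRC stayed under 5 on every array. PTPRC (CD45), the pan-leukocyte phosphatase, read 3.90 in TC/AEW against 3.91 to 4.02 in the TC-71 samples, and SPI1 (PU.1), a master factor of myeloid and B cells, read 4.10 against 3.81 to 4.15. The mean over the 11 markers was 5.73 in TC/AEW, 5.63 in TC/AVE and 5.65 in TC/CP, against 5.68 to 5.78 in the TC-71 samples, so TC/AEW lay within their range. Among these 11, the exception in level was ITGB2, the leukocyte integrin beta chain, at 10.67 to 11.71 on all arrays. Its arrays in every line lay below all TC-71 samples, as in 4.27% of all genes. The differences from the TC-71 mean were -0.43 in TC/AEW, -0.70 in TC/AVE and -0.29 in TC/CP. Outside this list, the blood-cell paralogs of the complex read 9.03 to 11.48 (NCKAP1L, main probe set) and 5.67 to 6.45 (ABI3). Ewing sarcoma markers were present in every line, with 7 of 8 measured genes at 7 or above on every array, such as CD99 at 12.82 to 13.00. The exception was LIPI, at 5.82 in TC/AEW, 5.23 in TC/AVE and 5.33 in TC/CP, against 7.01 ± 0.49 in TC-71.

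Genes with a profile like that of HCLS1 or WASF3 were listed. Both were picked for their high TC/AEW value, which dominates the measure, so the likeness of the pair follows from that choice and is a description. Likeness was taken as the root mean square difference, over the 6 samples, between profiles centred on their TC-71 mean. WASF3 was the nearest of 14180 other genes to HCLS1, at 0.19 on the log2 scale, and HCLS1 ranked 2 for WASF3. The gene nearest to WASF3 was the long non-coding RNA ZNF667-AS1 (0.18), which read 6.96 in TC/AEW, 4.01 in TC/AVE and 4.48 in TC/CP, against 4.56 ± 0.35 in TC-71. It also ranked 2 for HCLS1, at 0.27. Next to HCLS1 came CCND2, a D-type cyclin, at 0.38, with 8.82 in TC/AEW, 4.72 in TC/AVE and 4.95 in TC/CP, against 5.46 ± 0.50 in TC-71. TTLL6, a tubulin polyglutamylase, ranked 4 for both, at 0.47 to HCLS1 and 0.35 to WASF3. CD9, a tetraspanin, ranked 3 for WASF3 at 0.34, with 6.68 in TC/AEW, 4.87 in TC/AVE and 4.72 in TC/CP, against 4.52 ± 0.29 in TC-71. These distances rest mainly on the single TC/AEW sample, and the 6 samples share 1 parent line.

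**Figure D2:**
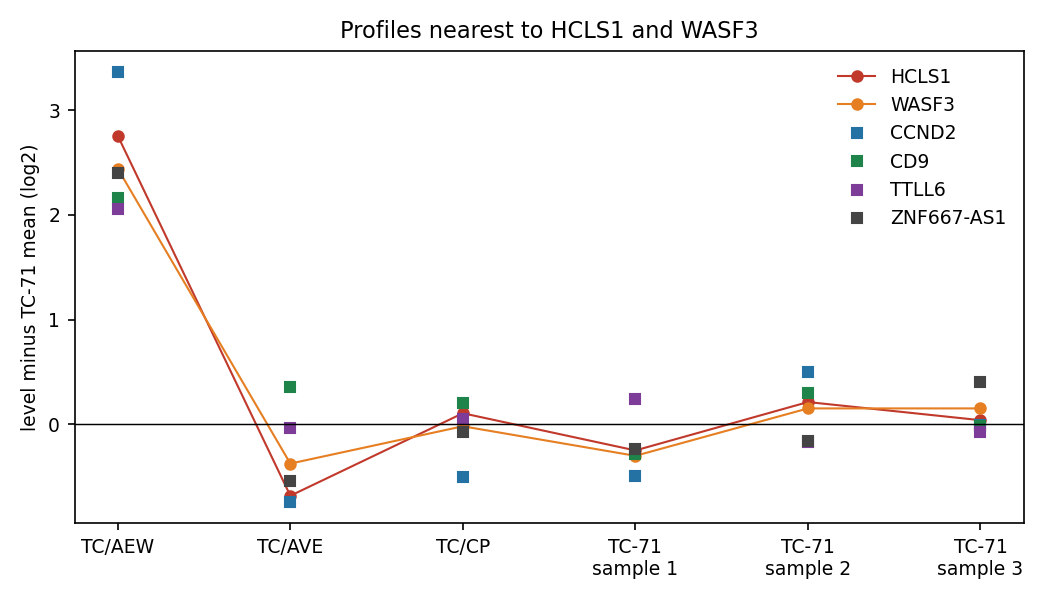
Level minus the TC-71 mean (log2) in TC/AEW, TC/AVE, TC/CP and the 3 TC-71 samples for HCLS1 and WASF3 (joined circles) and their nearest genes (squares). All 6 genes stand more than 2 above the TC-71 mean in TC/AEW and within 1 of it elsewhere.

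None of the other family and complex members passed the test. In TC/AEW against TC-71, 0 of the other 6 measured genes passed an adjusted p of 0.05 by limma, where 0% of all genes did, and 1 (CYFIP2) had an unadjusted p under 0.05, where 3.53% of all genes did. In the next counts and medians of 8, WASF3 is included though it passed the filter only through TC/AEW. Its readings in the other lines and TC-71 were all under 5, so its part in them says nothing about the gene. HCLS1 is included too, though the TC-71 samples took part in the contrast that chose it. In TC/AVE 0 of 8 passed, where 0% of all genes did, and 1 (HCLS1) had an unadjusted p under 0.05, against 7.18% of all genes. In TC/CP 0 of 8 passed, where again 0% of all genes did, and 0 of 8 had an unadjusted p under 0.05, against 4.97% of all genes. In the lines in common 0 of 6 passed, where 0.0212% of all genes did, and 1 (CYFIP2) had an unadjusted p under 0.05, against 8.37%. Between TC/AVE and TC/CP the counts were 0 of 8 adjusted, where 0% of all genes passed, and 0 of 8 unadjusted, where 5.75% did. Between TC/AEW and the mean of the antibody lines they were 0 of 6, where 0% passed, and 0 of 6, where 1.85% did. The median difference of the 6 was -0.09 in TC/AEW, and that of the 8 was 0.18 in TC/AVE and 0.15 in TC/CP, against medians of 0.00, -0.02 and -0.00 over all genes.

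Counts by non-overlap used each array. Both TC/CP arrays lay above all 3 TC-71 arrays in 2 of 8 genes (21.1% of all genes) and below them in 1 (17% of all genes), so in either direction in 3 (38% of all genes). In TC/AVE they lay above in 3 of 8 (19.6%) and below in 2 (19.7%), or 5 either way (39.3%). The 2 below were HCLS1 and WASF3. WASF3 passed the filter only through TC/AEW and read under 5 on all TC/AVE and TC-71 arrays, so its place is no direction. Both TC/AEW arrays lay above in 4 of 8, HCLS1 and WASF3 by choice among them, and below in 2. Of all genes 15.3% and 14.3% did, and 29.6% did either way.

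CTTN, cortactin itself, gave no single direction. Its main probe set read 9.12 and 9.35 in TC/AEW, 10.06 and 9.85 in TC/AVE and 10.06 and 9.99 in TC/CP, against 9.47, 9.56 and 10.05 in TC-71 samples 1, 2 and 3. TC/AEW was below all TC-71 arrays and the antibody lines overlapped them. The difference of TC/AEW was -0.46 ± 0.30, with adjusted p = 1.00 by limma. The other 3 kept probe sets of CTTN pointed the other way in TC/AEW, at 0.75, 1.28 and 0.37, each with both TC/AEW arrays above all TC-71 arrays, and the remaining probe set stayed under 5 throughout. In TC/AVE the same 3 probe sets stood 1.03, 1.28 and 1.32 above TC-71, against 0.27 ± 0.30 for the main one. In TC/CP they stood 0.41, 1.02 and 0.19 above it, against 0.34 ± 0.30. The differences of 1.28, both on the same probe set, rested in part on TC-71 sample 1. It read 5.63 there, beside 7.58 and 6.85 in samples 2 and 3. Against sample 2 alone, which shares its array set, TC/AEW differed there by 0.39.

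WASF2, the WAVE isoform found in most tissues, read 9.79 and 9.84 in TC/AEW, 9.79 and 9.88 in TC/AVE and 9.68 and 9.76 in TC/CP, against 10.90, 9.60 and 9.61 in TC-71 samples 1, 2 and 3. The 6 arrays of the lines lay between TC-71 sample 1 and the other samples. The differences from the TC-71 mean were -0.22, -0.20 and -0.31 in TC/AEW, in TC/AVE and in TC/CP (SE 0.58 each), and without TC-71 sample 1 they were 0.21, 0.23 and 0.12. The 95% interval of the TC/AEW difference ran from -1.72 to 1.27, with a TC-71 SD of 0.75. Of its other probe sets, 1 gave -0.39, -0.33 and 0.16 and the other -0.00, -0.02 and -0.63 in TC/AEW, in TC/AVE and in TC/CP.

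ABI1, the adaptor that links the complex to membrane signals and to ABL kinases, had 2 kept probe sets, and a further 1 stayed under 5 on every array. It read 10.25 and 10.16 in TC/AEW, 10.26 and 10.18 in TC/AVE and 10.14 and 9.96 in TC/CP, against 9.71, 10.07 and 9.81 in TC-71. The arrays of TC/AEW and TC/AVE lay above all TC-71 samples and those of TC/CP overlapped them. The differences were 0.34, 0.36 and 0.19 (SE 0.24 each), with adjusted p of 1.00, 0.888 and 0.998 by limma. Within the array sets they were 0.14, 0.15 and 0.24. The second probe set gave 0.71, 0.63 and 0.69, with all 6 arrays of the lines above TC-71, whose sample 1 read 7.96 beside 9.01 and 8.70.

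The CYFIP subunits bind active Rac. CYFIP2, also called PIR121, read 8.11 and 8.27 in TC/AEW, 7.87 and 7.98 in TC/AVE and 7.51 and 7.46 in TC/CP, against 6.75, 7.28 and 7.44 in TC-71. All 6 arrays of the lines lay above all TC-71 samples, as in 5.11% of all genes, with TC/CP above the highest of them by a margin smaller than the gap between its own arrays. The differences were 1.03 ± 0.33 in TC/AEW (2.04-fold), 0.77 ± 0.33 in TC/AVE and 0.33 ± 0.33 in TC/CP, with adjusted p of 1.00, 0.728 and 0.998 by limma. In the lines in common the difference was 0.71 ± 0.25 (adjusted p = 0.503). Within the array sets the differences were 0.91, 0.64 and 0.05. The second probe set of CYFIP2 gave 0.42 and 0.32 in TC/AEW and TC/AVE, with both arrays of each above TC-71, and -0.21 in TC/CP.

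CYFIP1, which also binds the fragile X protein FMRP, read 10.15 and 10.28 in TC/AEW, 10.59 and 10.62 in TC/AVE and 10.17 and 10.12 in TC/CP, against 10.37, 10.70 and 10.45 in TC-71. TC/AEW and TC/CP lay below all TC-71 samples and TC/AVE among them. The differences were -0.29, 0.10 and -0.36 (SE 0.24 each), with adjusted p of 1.00, 1.00 and 0.998 by limma. Within the array sets they were -0.48, -0.09 and -0.30, so the sign in TC/AVE turned. It had a single probe set.

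NCKAP1, the scaffold that pairs with CYFIP, read 11.16 and 10.72 in TC/AEW, 11.30 and 11.20 in TC/AVE and 11.32 on both in TC/CP, against 10.79, 10.86 and 11.03 in TC-71. TC/AEW straddled the TC-71 samples, its 2 arrays 0.44 apart, and both antibody lines lay above them. The differences were 0.05, 0.36 and 0.43 (SE 0.22 each), with adjusted p of 1.00, 0.852 and 0.998 by limma. The second probe set gave 0.71, 1.07 and 0.28, and TC-71 samples 1, 2 and 3 read 5.74, 7.32 and 6.16 on it.

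**Figure D3:**
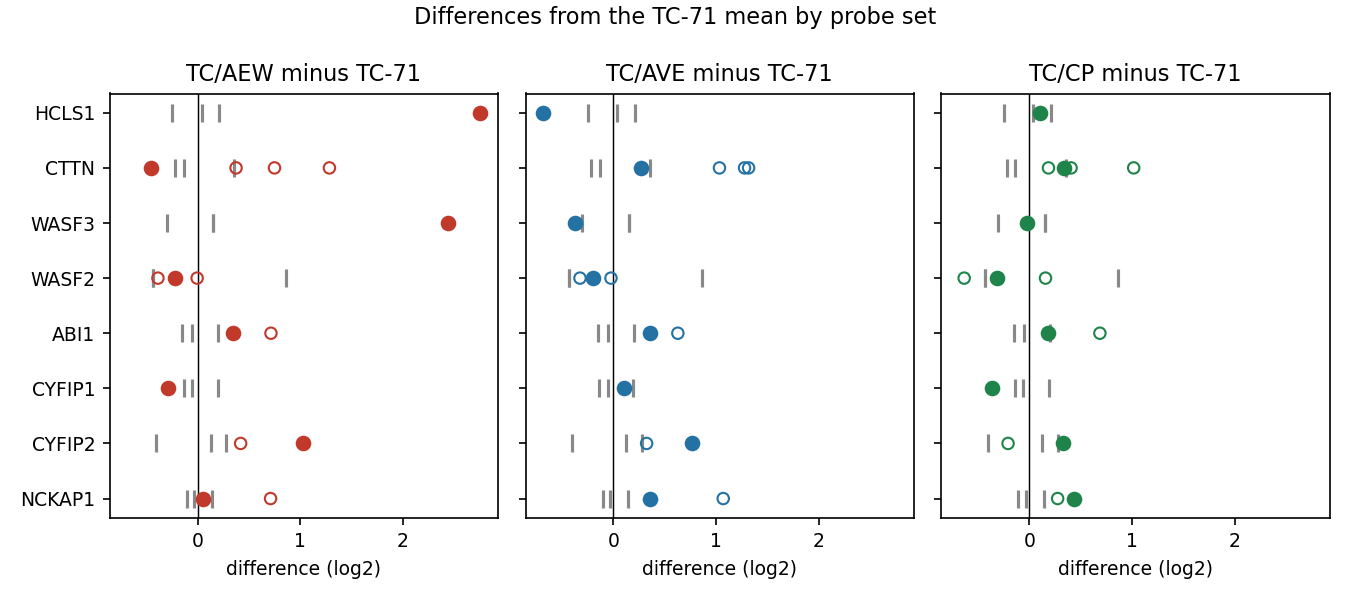
Difference from the TC-71 mean (log2) in TC/AEW, in TC/AVE and in TC/CP for the 8 measured genes, with filled circles for the main probe set, open circles for other kept probe sets and grey ticks for the 3 TC-71 samples on the main probe set. HCLS1 (2.76) and WASF3 (2.44) stand apart in TC/AEW, and the open circles of CTTN fall on the other side of 0 from its filled circle there.

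The wider actin pathway was read next. In 7 further lists, 83 of 92 genes were tested, and 0 passed an adjusted p of 0.05 by limma in any of the 6 comparisons. Over all genes almost none passed either, by the shares given above, so this count says little about the lists. At an unadjusted p under 0.05 there were 2 in TC/AEW, 6 in TC/AVE and 4 in TC/CP, or 2.41%, 7.23% and 4.82% of the 83, close to the shares over all genes given above. In TC/AEW 42 were higher and 41 lower, in TC/AVE 45 and 38, and in TC/CP 46 and 37. The median differences were 0.01, 0.07 and 0.04. In TC/AEW against the mean of the antibody lines 29 lay above 0 and 54 below it, and their median was -0.10, against 0.00 over all genes, and 1 had an unadjusted p under 0.05.

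Differences of at least 2-fold from TC-71 were few. In TC/AEW only RAC3 of the 83 genes was 2-fold higher, where 1.75% of all genes were, and 0 were 2-fold lower, where 0.487% were. In TC/AVE 3 were (1.98% of all genes), WIPF1 and WIPF3, partners that hold WASP proteins on filaments, and the formin FMNL2, and 0 were 2-fold lower (1.73% of all genes). In TC/CP CTTNBP2NL, a cortactin-binding protein relative, was 1.26 higher (2.43% of all genes were 2-fold higher), and NCKAP1L and RAC3 were 1.44 and 1.54 lower (0.79% of all genes were 2-fold lower). Without TC-71 sample 1, WIPF1 in TC/AVE (0.90) and CTTNBP2NL in TC/CP (0.92) were under 2-fold. WIPF3 read 6.41 in TC/AEW, 7.27 in TC/AVE and 5.73 in TC/CP, against 5.69 ± 0.26 in TC-71, and its 1.58 in TC/AVE had the lowest adjusted p of the 83 genes there (0.349 by limma).

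The Arp2/3 complex, which WAVE activates, had 8 of 9 subunits tested. Medians of the difference were -0.01, 0.08 and -0.01 in TC/AEW, in TC/AVE and in TC/CP. ACTR3, 1 of its actin-related subunits, read 12.45, 12.38 and 12.51 in TC/AEW, in TC/AVE and in TC/CP, against 12.31 ± 0.22 in TC-71. ARPC1A was the widest apart, at 11.15, 11.44 and 10.76, against 10.54 ± 0.21 in TC-71. Among the Rac genes, RAC1 stood at 11.84, 11.91 and 12.14, against 11.99 ± 0.09 in TC-71, and CDC42 at 11.07, 11.05 and 11.06, against 10.99 ± 0.06. DOCK4 differed from TC-71 (6.32 ± 0.66) by 0.57, 0.47 and 0.98 in TC/AEW, in TC/AVE and in TC/CP. PREX1 differed from TC-71 (9.82 ± 0.47) by -0.89, -0.73 and -0.59, with the arrays of every line below all TC-71 samples. Without TC-71 sample 1 the PREX1 differences were -0.63, -0.47 and -0.33.

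Of 12 formins tested, proteins that build unbranched filaments, 4 were higher and 8 lower in TC/AEW, 5 and 7 in TC/AVE, and 6 and 6 in TC/CP. FMNL2 was higher in every line, by 0.67, 1.33 and 0.98 in TC/AEW, in TC/AVE and in TC/CP, with all 6 arrays above TC-71 (8.30 ± 0.54). DIAPH3 was lower in every line, with differences of -0.70, -0.33 and -0.81 and all 6 arrays below TC-71 (10.22 ± 0.25), as in 4.27% of all genes. Without TC-71 sample 1 the FMNL2 differences were 0.36, 1.02 and 0.67, and that of DIAPH3 in TC/AVE was -0.22. Neither passed over all genes. WIPF1 lay above TC-71 on all 6 arrays too, by 0.59, 1.07 and 0.49.

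**Figure D4:**
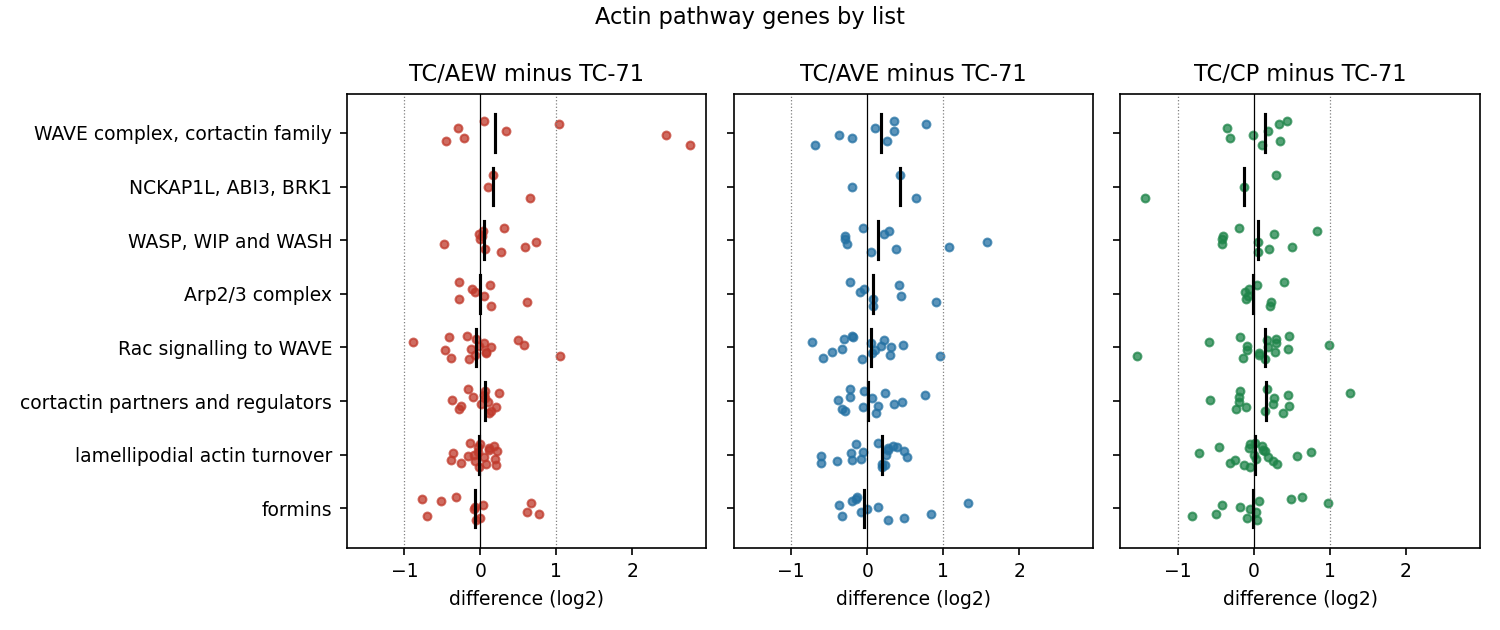
Difference from the TC-71 mean (log2) in TC/AEW, in TC/AVE and in TC/CP, with a point for each tested gene, a row for each list and a black bar at the list's median. Dotted lines mark 2-fold, and in TC/AEW the points beyond it are HCLS1 (2.76), WASF3 (2.44), CYFIP2 (1.03) and RAC3 (1.05).

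None of the cortactin partners and actin turnover factors passed the test, as was so for almost all genes. Of 14 cortactin partners tested, 9 were higher and 5 lower in TC/AEW, 7 and 7 in TC/AVE, and 8 and 6 in TC/CP. HAX1, a binding partner of HCLS1, read 11.70 in TC/AEW, 11.45 in TC/AVE and 11.40 in TC/CP, against 11.50 ± 0.43 in TC-71. FYN, a Src family kinase, read 9.69, 9.26 and 9.70, against 9.55 ± 0.50. CTTNBP2NL read 7.90, 7.89 and 8.91, against 7.66 ± 0.58, so TC/CP stood apart. Of 19 turnover factors, CAPZA1, a subunit of the capping protein that stops filament growth, was 0.75 higher in TC/CP, at 12.28 against 11.53 ± 0.08, with an adjusted p of 0.782 by limma. PFN2, a profilin that feeds actin monomers to growing ends, read 12.17 in TC/AEW, 12.64 in TC/AVE and 12.31 in TC/CP, against 12.12 ± 0.04. CFL1 (cofilin), which severs filaments, read 13.38, 13.59 and 13.35, against 13.40 ± 0.13. EVL, of the Ena/VASP family, read 8.42, 8.58 and 8.06, against 8.79 ± 0.46.

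The last WAVE subunit and the blood-cell paralogs completed the complex. BRK1, the small subunit HSPC300, read 11.32, 11.59 and 11.44 in TC/AEW, in TC/AVE and in TC/CP, against 11.16 ± 0.17 in TC-71. ABI3 read 6.15, 5.86 and 5.92, against 6.05 ± 0.36 in TC-71. NCKAP1L (HEM1), the counterpart of NCKAP1 in blood cells, read 11.27 and 11.35 in TC/AEW, 11.38 and 11.24 in TC/AVE and 9.19 and 9.25 in TC/CP, against 11.47, 11.48 and 9.03 in TC-71 samples 1, 2 and 3. TC/CP and TC-71 sample 3 were low together, and these arrays form an array set of their own. RAC3, a Rac GTPase, did the same, at 8.70 and 9.11 in TC/AEW, 8.73 and 8.90 in TC/AVE and 6.17 and 6.45 in TC/CP, against 8.45, 8.80 and 6.31 in TC-71. Within that set, TC/CP differed from TC-71 sample 3 by 0.19 in NCKAP1L and by -0.00 in RAC3, so the differences of TC/CP from the TC-71 mean given above rest on samples 1 and 2. The RAC3 difference of TC/AEW rests in turn on sample 3, since against sample 2 it was 0.10. The other 2 probe sets of NCKAP1L did not have the pattern, the nearer of them reading 9.61 on both arrays in TC/CP, against 9.37, 9.07 and 9.36 in TC-71 samples 1, 2 and 3.

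**Figure D5:**
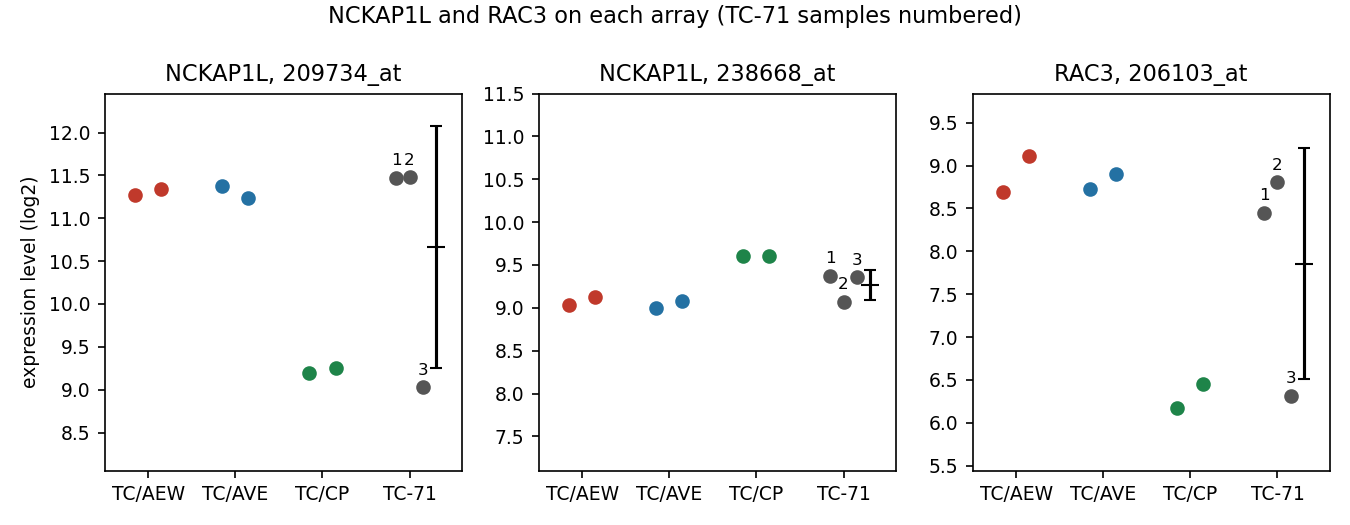
Expression level (log2) on each array for 2 probe sets of NCKAP1L and the probe set of RAC3, with TC/AEW, TC/AVE and TC/CP left of TC-71, whose samples are numbered and whose bar is the mean ± SD (n = 3). On the left probe set of NCKAP1L and on RAC3 the TC/CP arrays and TC-71 sample 3 lie together, at 9.25 or below and at 6.45 or below, under all other arrays.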

How the data were processed

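The authors deposited log2 levels for each probe set. The submitters' processing notes name RMA and affy, without versions. RMA scales all arrays to 1 distribution, so changes are relative, and it compresses low levels.

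The 62 control probe sets and those with several symbols or none were left out. The filter kept probe sets with 5 or more on 2 of 9 arrays, and the one with the highest mean stood for its gene, _x_at ones as a last resort. The 2 arrays of a line were averaged. Two-sided tests used limma 3.58.1 (R 4.3.3) with p adjusted by Benjamini-Hochberg over 14181 genes, in a fit with 4 groups (2 residual and 3.00 prior degrees of freedom) and, for the lines in common, a fit with 2 groups (4 and 3.06). With 1 sample a line, the lone sample was assumed to vary like TC-71. On simulated data, TC/AEW against TC-71 called 0% of genes changed by 1 on the log2 scale, 40% by 2 and 86% by 4. The lines in common called 30%, 76% and 98%. The simulation changed 50 genes at each of these sizes and 50 more by 6, in all lines at once. Many large changes ease the adjustment over all genes, so these shares need not hold for the measured data. A count of 0 therefore says little about changes in a single line. The number of arrays limits precision.

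The members and lists were chosen with earlier results of these data known. The text names all members, the 4 nearest profiles of HCLS1 and of WASF3, and from each other list genes of the highest mean level or the largest difference. ABI3, PREX1 and single markers were named after their values were seen. Other settings tried were the filter, the probe set, the scaling, the prior, arrays as samples, the array set, and leaving out samples, arrays or lines.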

Additional observations from a re-analysis of the deposited data

Results flagged for a closer look

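HCLS1 read on opposite sides of TC-71 in 2 of the lines, with both TC/AEW arrays above all TC-71 arrays (difference 2.76) and both TC/AVE arrays below them (-0.68). Of the TC/AVE and TC-71 arrays only TC-71 sample 2, at 5.11, read above 5, so no drop in TC/AVE is drawn. The TC-71 samples also took part in the contrast that chose the gene. WASF3 read 2.44 above TC-71 in TC/AEW and differed by -0.38 in TC/AVE, where all readings were under 5 and the higher TC/AVE array and TC-71 sample 1 both read 4.12 to 2 decimals, so no direction is drawn there. The TC/AEW values are those on which the genes were picked, and the difference between TC/AEW and TC/AVE was not tested.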

How the results depend on the processing

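The difference of TC/AEW from TC-71 ran from 2.54 to 2.86 in HCLS1 and from 2.29 to 2.53 in WASF3 over 13 other settings each. The filter and the probe set could not move these differences, since each gene had a single probe set. The prior and arrays as samples could not either, since they leave the group means unchanged. The genes were picked on this contrast, so the range is a description. With each of the 9 arrays as its own sample, so that technical replicates count in full, the genes called were 547 in TC/AEW, 1857 in TC/AVE, 1029 in TC/CP, 295 in TC/AEW against the antibody lines, 1897 between the antibody lines and 240 in the lines in common, against 0, 0, 0, 0, 0 and 3. Centring each array on its median gave 34 in TC/AVE, 4 in TC/CP, 1 between the antibody lines and 8 in common, the mean of all probe sets 6 in TC/AVE and 6 in common, and a trend in the prior 1 in TC/CP, 1 between the antibody lines and 6 in common. In common, no filter gave 0, a filter at 6 gave 6, no _x_at or _s_at probe sets gave 5, the array set as a block gave 0, and leaving out TC/AEW, TC/AVE or TC/CP gave 0 each. Leaving out a replicate gave 0 to 5 in common and 0 elsewhere. The causes of these shifts were not tested, apart from fewer samples where one was left out.

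Values that changed sign were these. CTTN in TC/AEW was 0.49 as the mean of its probe sets and 0.75, 1.28 and 0.37 on the single ones. Within the array set CTTN in TC/CP was -0.017, WASF2 was 0.21, 0.23 and 0.12 in TC/AEW, in TC/AVE and in TC/CP, and CYFIP1 in TC/AVE was -0.094. On second probe sets WASF2 in TC/CP was 0.16 and CYFIP2 in TC/CP was -0.21. In the lines in common, WASF2 was 0.18 with the array set as a block, CTTN was -0.000892 with arrays centred, -0.059 without TC/AVE and -0.095 without TC/CP, and without TC/AEW HCLS1 was -0.29 and WASF3 -0.20, against 0.73 and 0.68 with it. Leaving out a TC-71 sample gave ranges of -0.020 to 0.21 for HCLS1 in TC/CP, -0.061 to 0.23 for CTTN in common, and, for WASF2, -0.44 to 0.21 in TC/AEW, -0.42 to 0.23 in TC/AVE, -0.53 to 0.12 in TC/CP and -0.46 to 0.19 in common. It also gave -0.17 to 0.056 for WASF3 in TC/CP and -0.0039 to 0.12 for NCKAP1 in TC/AEW. Leaving out an array of each line gave -0.19 to 0.15 for WASF3 in TC/CP and -0.17 to 0.27 for NCKAP1 in TC/AEW. With 9 arrays as samples, CYFIP2 passed in TC/AEW (adjusted p = 0.0232 by limma) and TC/AVE (0.0314). HCLS1 did so in TC/AVE (0.0164) and between the antibody lines (0.0130). These passes come from counting technical replicates as samples, and with 1 sample a line neither gene passed. The TC/AVE readings of HCLS1 were under 5, so no drop is drawn. No paired analysis was possible by replicate number because the 2 arrays of a line are technical replicates averaged into 1 sample; the array set was the only block available, with the results given here.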

Other observations

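The array set of TC/CP and TC-71 sample 3 was compared with the other 4 samples. By main probe set, RAC3 and NCKAP1L had the lowest and second lowest values of all 14181 genes. They stood at -2.43 (5.38-fold) and -2.27 (4.81-fold) on the log2 scale, and both are of the Rac to WAVE pathway. The other probe sets of NCKAP1L did not have the pattern, with means of 9.48 and 9.12 in that set, against 9.14 and 9.15 in the other samples. With no overlap and at least 2-fold apart, 52 genes (0.367%) separated the samples this way, 17 lower and 35 higher. This comparison was chosen after the values were seen, and TC-71 sample 3 shows the low levels as TC/CP does, while what the arrays of a set have in common is not stated in the labels.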
